A study of Mus musculus with 40 samples.

Results

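The solute carriers are the genes whose symbols begin with Slc and a family number. Every probe with a single such symbol was taken from both array designs of the study. This gave 136 of 15279 probes, for 111 of 6970 named genes. Array design 1 held 74 of these probes for 64 genes, array design 2 held 62 probes for 59 genes, and 12 genes were on both. Another 6 probes carried several symbols, 1 of them an Slc symbol, and were not counted. Genes were put into substrate classes mostly by family number, so a single member may carry something else. Amino acids held 13 genes, the Slc6 family of amino acid, taurine and creatine carriers 4, glucose and other sugars 9, and nucleosides 4. The Slc35 family of nucleotide sugar carriers held 12, ions and metals 31, Slc25 carriers 15 and other organic solutes 22. The remaining gene, Slc9a3r1, has an Slc symbol but encodes a scaffold protein and not a transporter.

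Mouse embryos in culture at 37 °C with 40 µM 4-hydroperoxycyclophosphamide (4CP), kept in the medium for 5 h, were compared with untreated embryos cultured at the same temperature. The drug is a form of the alkylating agent cyclophosphamide that does not need activation by the liver. Total RNA of both groups was labelled in different channels and hybridised together on 20 slides, each read as a plain and a B readout, which gave the 40 samples. There were 5 replicates on each design, each with a slide for either dye orientation. The sources used here give no strain, embryonic age, number of embryos in a replicate or meaning of the B mark. Nothing states that the replicates were separate litters, so the spread that the tests use may be a technical one. In whole embryos, fewer cells of a type and less RNA per cell cannot be told apart.

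Solute carriers are membrane proteins that move small molecules either down their own gradient or against it by coupling to the movement of another ion or solute. They feed the embryo with glucose, amino acids, nucleosides and metals, and most Slc25 members pass metabolites, phosphate and nucleotides across the inner mitochondrial membrane. Several are textbook targets of stress pathways, such as Slc38a2 for ATF4 and Slc2a1 for the response to low oxygen.

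All values are log2 ratios, written as treated over control, of readouts centred on their median. A value of 0 therefore means no difference from the middle of the array, and the mean of both dye orientations is 1 value per replicate. The direction is likely and not settled. It rests on reading the deposited ratio as channel 1 over channel 2, and on Ccng1, a p53 target, which stood at 2.90 and 2.41 on design 1 and 1.39 on design 2. Readouts of one dye orientation correlated as low as −0.31 on design 1 and −0.54 on design 2, so the readouts do not settle it themselves. The treatment values of different replicates correlated at 0.30 to 0.73 on design 1 and 0.35 to 0.69 on design 2 over all probes, and at 0.21 to 0.73 and 0.17 to 0.79 over the solute carriers. With the ratio read the other way, every "higher" below becomes "lower", and 14 higher and 10 lower calls become 10 higher and 14 lower. Without centring, the median of all probes lay at −0.23 to −0.44 in the replicates of design 1 and at −0.12 to −0.66 on design 2, and 13 of the 14 solute carriers called higher turned sign, all except Slc38a4, so every direction is relative to that median. Folds assume base 2. Ratios carry no counts, so no interval for counting error can be given.

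Most solute carriers did not pass the test between treated and control embryos. With limma and p-values adjusted over all probes of a design, 11 of 74 probes passed 0.05 on design 1 and 13 of 62 on design 2. These are 14.9% and 21.0%, against 15.9% and 27.8% of all probes. On design 1, 6 were higher (8.11%, against 10.2% of all probes) and 5 were lower (6.76%, against 5.77%). On design 2, 8 were higher (12.9%, against 19.8%) and 5 were lower (8.06%, against 8.07%). The 24 called probes belong to 23 genes, and 20 of them had one sign in all 5 replicates. Among all probes with 1 gene symbol, as the solute carriers have, the shares were 12.0% higher and 3.47% lower on design 1 and 21.8% higher and 6.86% lower on design 2. The solute carriers' share of higher calls was below both backgrounds on each design. Their share of lower calls was above both backgrounds on design 1. On design 2 it was above that of the named probes and level with all probes, at 8.06% beside 8.07%. These lower calls were 5 probes on each design. At an unadjusted p under 0.05 there were 25 of 74 and 23 of 62, against 35.6% and 41.2% of all probes.

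Typical sizes were close to those of all named probes. The largest difference was 0.33 on design 1 and 0.41 on design 2. Single named genes reached 2.90 and 1.39, but among 4749 and 4855 probes and not among 74 and 62. No solute carrier exceeded 0.5 in either direction, while 35 of 4749 named probes did on design 1 and 39 of 4855 on design 2. Shares this low leave little room for such a probe among so few. The median size regardless of sign was 0.0976 and 0.0986, against 0.0974 and 0.0975 for all named probes. The median replicate SD was 0.127 and 0.113. Median ratios were 0.01 and −0.03, beside −0.00 and 0.02 for all probes. One sign in all 5 replicates was seen for 9 probes higher (12.2%, against 13.0% of all probes) and 17 lower (23.0%, against 16.4%) on design 1, and for 9 higher (14.5%, against 20.1%) and 13 lower (21.0%, against 13.8%) on design 2.

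**Figure D1:**
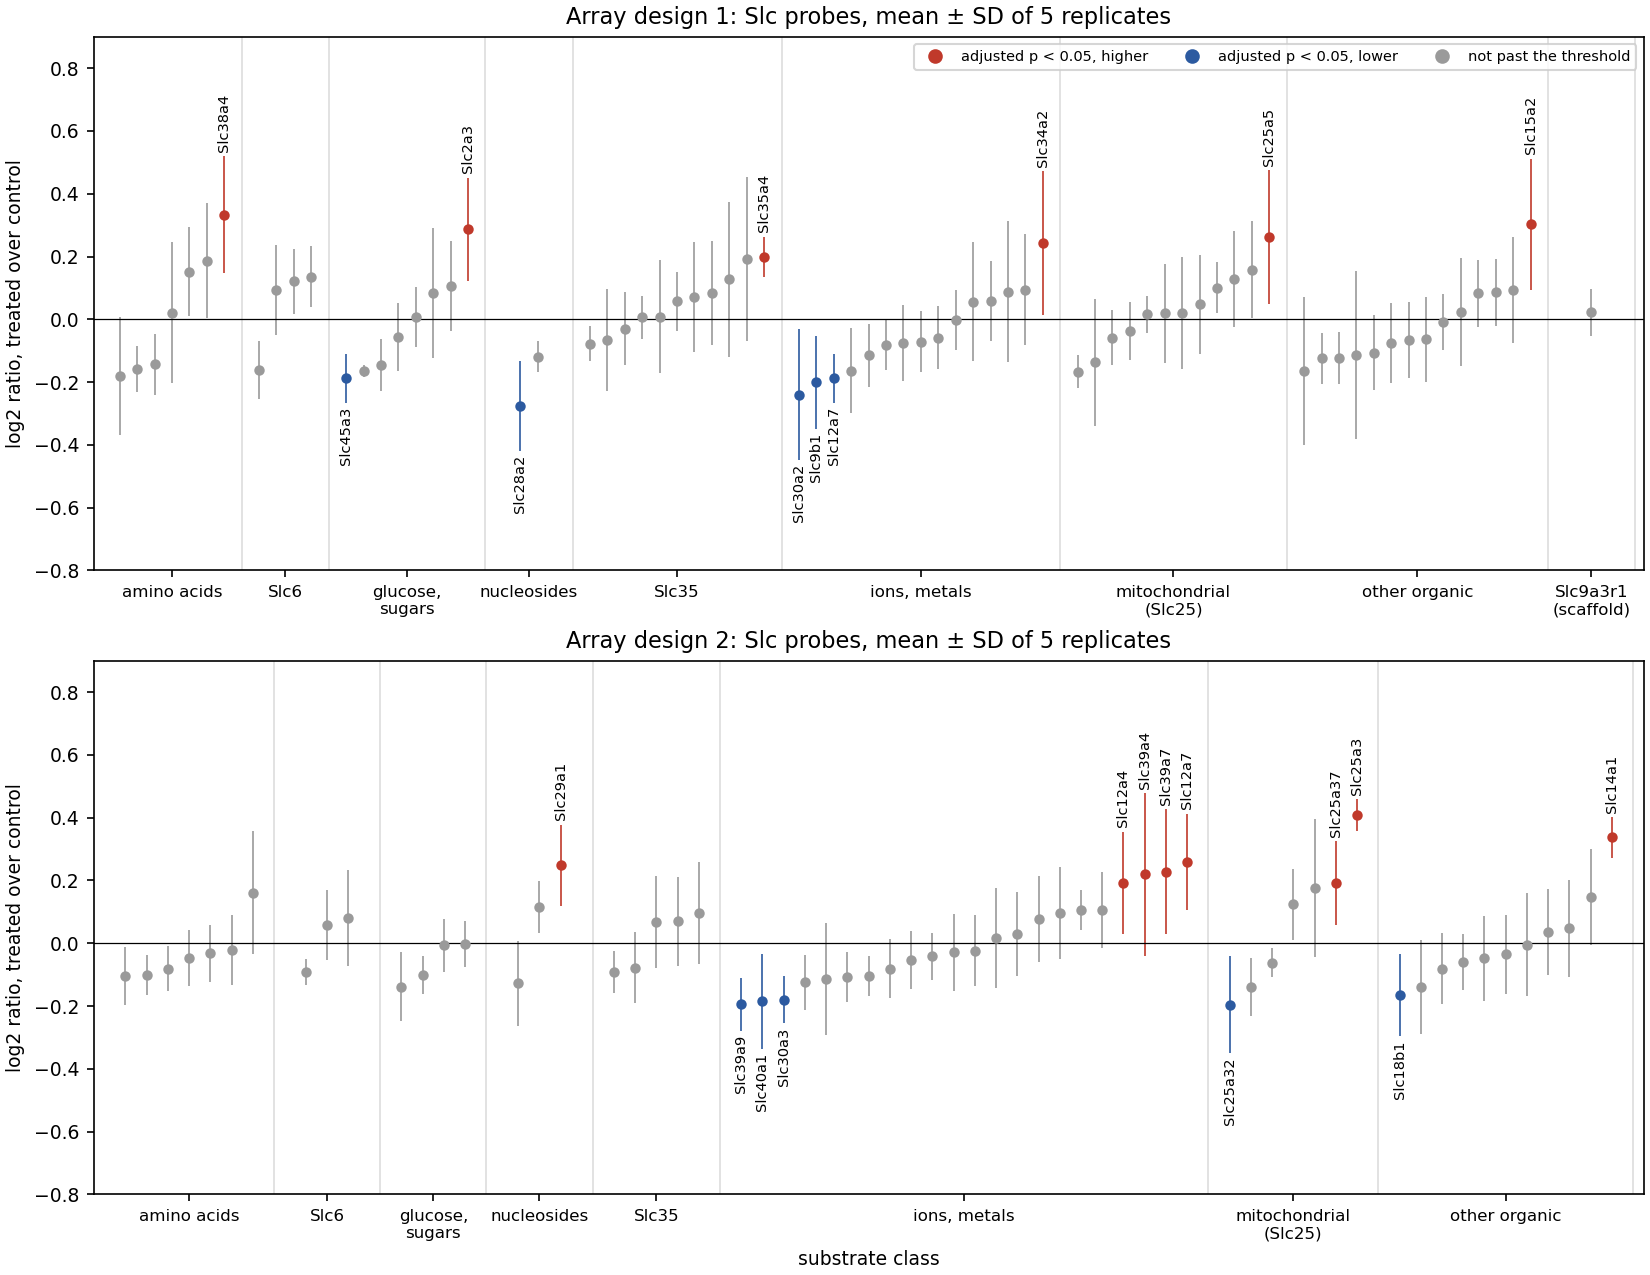
Each point is 1 solute carrier probe, with its mean log2 ratio of treated over control embryos and SD over 5 replicates on the vertical axis, sorted within its substrate class. Design 1 is above and design 2 below, and the named points passed the limma threshold: 6 higher and 5 lower on design 1, and 8 higher and 5 lower on design 2. No class lies wholly on one side of 0 apart from classes of at most 4 probes.

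Several technical features move with these values. Among called solute carriers the means of the 2 dye orientations had opposite signs for 5 of 11 probes on design 1 and 5 of 13 on design 2, beside 47.1% and 43.9% of all called probes. A second fit therefore first removed from each replicate a smooth function of the probe's dye profile, which is the part of its ratios that does not turn when the dyes are swapped. This trend took 34.4% to 74.0% of the variance on design 1 and 35.3% to 61.6% on design 2. A treatment difference that varied with the dye profile would be removed with it. Whether the trend is technical was not tested, so a lost call is not shown to be an artefact. After its removal, 5 of 74 solute carrier probes on design 1 had an unadjusted limma p under 0.05, against 1095 of all 7680 probes. None passed the adjusted threshold there, where 0.977% of all probes were called higher and 0.560% lower. On design 2, 5 were higher (8.06%, against 3.15%) and 2 lower (3.23%, against 1.88%). Of the 24 probes called at first, 4 were also called after it: Slc25a3, Slc29a1, Slc12a4 and Slc12a7 on design 2.

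**Figure D2:**
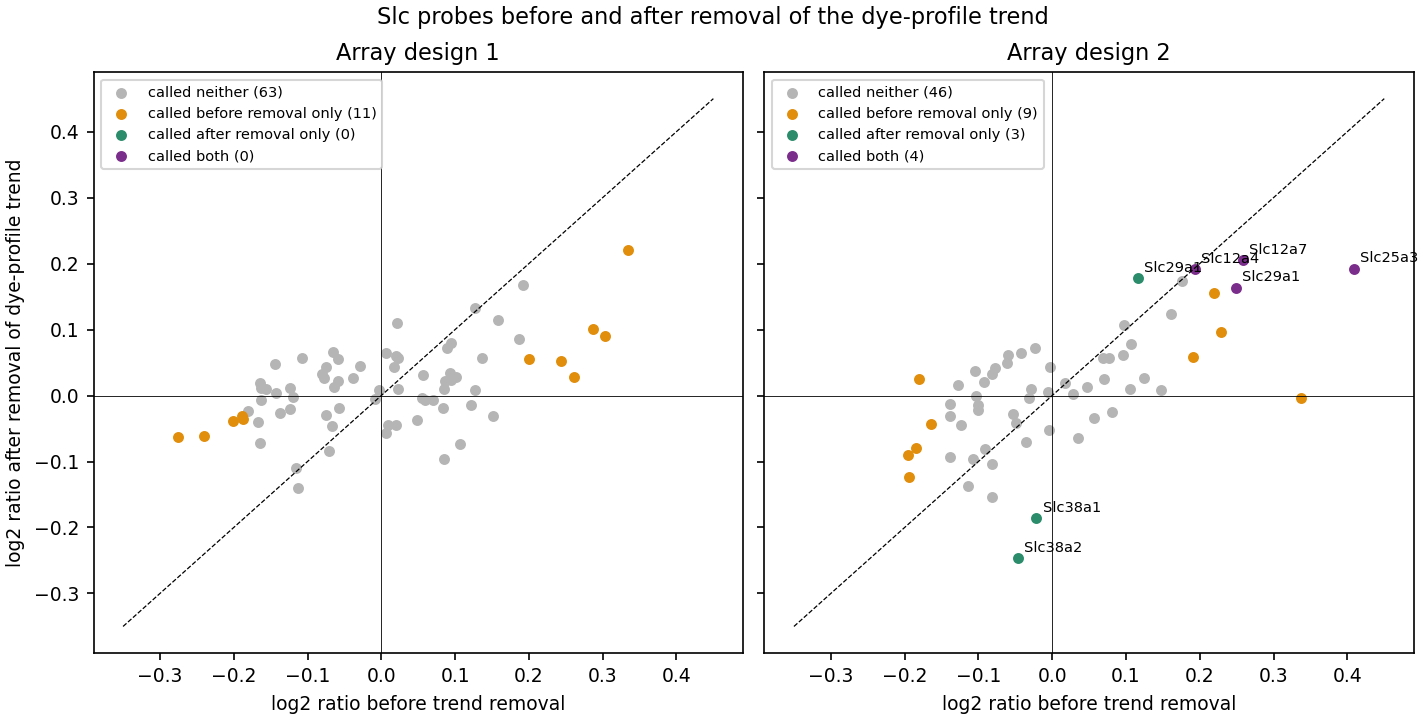
Each point is 1 solute carrier probe, with its mean log2 ratio of treated over control embryos before removal of the dye-profile trend on the horizontal axis and after it on the vertical axis, and the dashed line marks equal values. On design 1 all 11 called probes moved toward 0 and lost their call. On design 2, 4 probes were called both ways and 3 only after removal.

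Single replicates also bear on the counts, and counts within slide series are given beside them. Without replicate 4, no solute carrier passed in limma on design 1, with 19 at an unadjusted p under 0.05, and of all probes 1.04% were then higher and 0.0260% lower, 82 in number. Replicate 4 of design 1 stands here without 1 readout that lacks 786 values. With that readout kept, 50 of all probes passed (0.638% higher and 0.0130% lower) and again no solute carrier did, with 22 at an unadjusted p under 0.05. On design 2, Slc25a3, Slc29a1, Slc12a7 and Slc14a1 passed with any 1 replicate left out. Slide numbers fall into a 2000 and a 3000 series. Replicates 1 and 2 of design 1 and 1, 2 and 3 of design 2 are of the 2000 series, the others of the 3000 series. Fits within a series thus rest on fewer replicates, and in their counts the series and the number of replicates cannot be told apart. Within the 2000 series, 1 solute carrier was higher and 0 lower on design 1 and 9 were higher and 6 lower on design 2. Of all probes, 0.768% were higher and 0.0130% lower on design 1 and 20.2% and 8.36% on design 2. Within the 3000 series the solute carrier counts were 1 and 0 on design 1 and 2 and 0 on design 2, and of all probes 3.65% were higher and 0.0130% lower on design 1 and 9.99% and 0.684% on design 2. The difference between the series passed in limma for 1 of all probes on design 1 and 0 on design 2, and for no solute carrier, with 2 on design 1 and 3 on design 2 at an unadjusted p under 0.05.

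Windows around the transcription starts of 4 of the 6 genes past the threshold on design 2 after removal of the trend are shown here: Slc25a3, Slc29a1 and Slc12a4, which were higher, and Slc38a2, an amino acid carrier that ATF4 is known to induce, which was lower. Each runs from 250 bases before to 50 bases after the start given by RefSeq on GRCm38.p6, 5′ to 3′ on the gene's strand, which is the minus strand for all 4. They lie at chr10:91123918-91124217 for Slc25a3, chr17:45599569-45599868 for Slc29a1 (the most upstream of 8 listed), chr8:105966066-105966365 for Slc12a4 and chr15:96699679-96699978 for Slc38a2. Capitals mark matches on either strand to the letters TGACNNNGC of the antioxidant response element, ACGTG of the hypoxia response core and GGGCGG of the Sp1 GC box.
Slc25a3: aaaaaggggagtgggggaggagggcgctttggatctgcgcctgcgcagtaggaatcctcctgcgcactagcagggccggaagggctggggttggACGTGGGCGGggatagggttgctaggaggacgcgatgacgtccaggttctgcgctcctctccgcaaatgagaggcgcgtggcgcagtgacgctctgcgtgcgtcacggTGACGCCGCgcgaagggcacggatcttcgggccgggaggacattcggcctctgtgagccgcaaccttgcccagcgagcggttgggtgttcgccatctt
Slc29a1: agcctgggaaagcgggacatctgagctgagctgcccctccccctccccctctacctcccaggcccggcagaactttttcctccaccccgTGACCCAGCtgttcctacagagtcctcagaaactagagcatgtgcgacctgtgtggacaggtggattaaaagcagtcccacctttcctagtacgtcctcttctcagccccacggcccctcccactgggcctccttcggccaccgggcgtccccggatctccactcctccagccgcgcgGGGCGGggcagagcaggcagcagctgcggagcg
Slc12a4: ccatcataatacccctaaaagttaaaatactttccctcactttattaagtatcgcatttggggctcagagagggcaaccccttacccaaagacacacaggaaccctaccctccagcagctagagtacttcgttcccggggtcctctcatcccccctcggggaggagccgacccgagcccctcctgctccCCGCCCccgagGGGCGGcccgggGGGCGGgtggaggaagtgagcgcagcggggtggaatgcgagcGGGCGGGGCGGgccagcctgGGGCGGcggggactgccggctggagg
Slc38a2: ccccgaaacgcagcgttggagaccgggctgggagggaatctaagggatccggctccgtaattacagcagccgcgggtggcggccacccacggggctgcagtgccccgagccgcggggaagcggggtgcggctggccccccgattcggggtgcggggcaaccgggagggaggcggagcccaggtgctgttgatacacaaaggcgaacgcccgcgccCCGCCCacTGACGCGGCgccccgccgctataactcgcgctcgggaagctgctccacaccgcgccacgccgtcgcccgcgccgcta

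The window of Slc25a3 holds 1 antioxidant match and a hypoxia match that overlaps 1 GC box. Those of Slc29a1 and Slc38a2 each hold 1 antioxidant match and 1 GC box, and that of Slc12a4 holds 6 GC boxes. The ATF4 motif TGATGNAA and the p53 half-site consensus had no match in the 4 windows. A window was listed for 83 of the 111 genes, 106 windows in all. GC boxes were in 72.6% of these and in 35.7% of all 32851 windows of this length. The hypoxia core was in 33.0% and 19.6%, the antioxidant letters in 17.0% and 12.4%, the ATF4 motif in 2.83% and 3.97%, and the p53 half-site in 3.77% and 8.36%. A match describes letters only, and the lack of one says nothing of sites outside the window.

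Mitochondrial carriers held the largest difference of any solute carrier. Slc25a3 encodes the carrier that brings phosphate into the matrix for ATP synthesis. On design 2 it stood at 0.42, 0.48, 0.42, 0.38 and 0.35 in replicates 1 to 5. All lay above 0 and within a narrow range once both dye orientations were averaged. Its mean was 0.41 ± 0.05 (SD, n = 5), a 1.33-fold rise with a 95% interval of 0.30 to 0.52 on the log2 scale and an adjusted p of 5.62e-06. It was 0.62 with treated embryos in channel 1 and 0.19 with them in channel 2. Replicates 2 and 5 changed sign between the orientations. They were at 1.04 and 0.98 with treated embryos in channel 1 and at −0.08 and −0.28 with them in channel 2. Removal of the trend left 0.19 ± 0.08 with an adjusted p of 0.0222. The Slc25a3 probe on design 1 did not show the rise, at −0.06, −0.04, 0.18, 0.25 and −0.10 and a mean of 0.05 ± 0.16 (adjusted p = 0.645).

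Of the 12 Slc25 probes on design 1, 1 rose (8.33%, against 10.2% of all probes) and none fell (against 5.77%). At an unadjusted p under 0.05 there were 3, against 35.6% of all probes. Slc25a5, an ADP/ATP exchanger of the inner membrane, stood at 0.20, 0.21, −0.04, 0.46 and 0.47. Only replicate 3 lay below 0, and the mean was 0.26 ± 0.21 (adjusted p = 0.0331). The call was lost without replicate 1, 2, 4 or 5 (adjusted p up to 0.125). On design 2 the Slc25a5 probe was at −0.06 ± 0.05 (adjusted p = 0.387).

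On design 2, 2 of 7 Slc25 probes rose (28.6%, against 19.8% of all probes) and 1 fell (14.3%, against 8.07%). Slc25a37, mitoferrin 1, brings iron into the mitochondria of developing red cells. Its replicates were 0.29, 0.08, 0.22, 0.02 and 0.33, all above 0 with replicates 2 and 4 close to it, and the mean was 0.19 ± 0.13 (adjusted p = 0.0173). Slc25a32, which carries folate or flavin into mitochondria, stood at −0.41, −0.07, −0.08, −0.11 and −0.30. Replicates 1 and 5 were the lowest, and the mean was −0.20 ± 0.16 (adjusted p = 0.0183). Slc25a37 lost its call without replicate 1 or 5 (adjusted p up to 0.0941) and Slc25a32 without replicate 1 (adjusted p = 0.120). Neither was called after removal of the trend, at 0.06 and −0.09. Other carriers did not pass. Slc25a33, a pyrimidine nucleotide carrier, was at −0.17 ± 0.05 (adjusted p = 0.0554), and Slc25a26, which brings S-adenosylmethionine into mitochondria, at −0.14 ± 0.09 (adjusted p = 0.0586).

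Red cell genes are given beside Slc25a37 because blood formation uses much iron. Hbb-y, an embryonic beta-like globin, stood at 0.58 to 0.63 on its 4 probes, and Hba-x, an embryonic alpha-like globin, at 0.58, all past the threshold on design 2. After removal of the trend the Hbb-y probes were at 0.31 to 0.35, with 1 of the 4 no longer past the threshold (adjusted p = 0.0502), and Hba-x was at 0.23 and not past it (adjusted p = 0.105). Alas2, the first enzyme of haem synthesis in red cells, was at −0.00, and Slc4a1, the anion exchanger band 3 of the red cell membrane, at 0.11 ± 0.12 (adjusted p = 0.155). Tfrc, the transferrin receptor, was at 0.18 on design 1 (adjusted p = 0.0515) and at 0.14 and −0.02 on design 2. The part of red cells in the Slc25a37 value was not tested.

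Nucleoside carriers include equilibrative (Slc29) and sodium-coupled (Slc28) types, which take up nucleosides for salvage. Slc29a1, the main equilibrative one, rose on design 2. The called probe stood at 0.41, 0.21, 0.30, 0.27 and 0.06, all above 0, with a mean of 0.25 ± 0.13 (adjusted p = 0.00241). Its other probe on that design was at 0.24, 0.05, 0.14, 0.12 and 0.03, also above 0 throughout, with a mean of 0.12 ± 0.08 that did not pass (adjusted p = 0.105). With the trend removed both passed, at 0.16 ± 0.09 (adjusted p = 0.0472) and 0.18 ± 0.08 (adjusted p = 0.0308). The probe called at first was at 0.48 with treated embryos in channel 1 and 0.02 with them in channel 2. The other probe had opposite signs, at −0.04 with treated embryos in channel 1 and 0.27 with them in channel 2.

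Slc28a2, the sodium-coupled carrier of purine nucleosides, fell on design 1. Its replicates were −0.28, −0.20, −0.29, −0.11 and −0.50, all below 0 with replicate 5 the lowest, and the mean was −0.28 ± 0.14 (adjusted p = 0.0153). The orientations went opposite ways, at −0.74 with treated embryos in channel 1 and 0.19 with them in channel 2. The call was lost without replicate 4 (adjusted p = 0.0550), and the value with the trend removed was −0.06 (adjusted p = 0.501). The other members did not pass: Slc29a2 was at −0.12 ± 0.05 on design 1 (adjusted p = 0.142) and Slc28a3 at −0.13 ± 0.13 on design 2 (adjusted p = 0.0951).

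Among carriers of ions and metals, the potassium chloride cotransporters Slc12a4 and Slc12a7, which let salt out of cells during volume regulation, rose on design 2. Slc12a7 stood at 0.49, 0.26, 0.11, 0.31 and 0.12, with a mean of 0.26 ± 0.15 (adjusted p = 0.00241). It had nearly the same mean in both orientations, 0.25 with treated embryos in channel 1 and 0.27 with them in channel 2, and 0.21 ± 0.09 with the trend removed (adjusted p = 0.0204). Its design 1 probe went the other way, at −0.14, −0.21, −0.30, −0.10 and −0.19, with a mean of −0.19 ± 0.08 (adjusted p = 0.0410). That call was lost without any 1 of the 5 replicates (adjusted p up to 0.102), and the value was −0.03 with the trend removed (adjusted p = 0.774). The direction of Slc12a7 therefore differs between its probes.

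Slc12a4 was at 0.45, 0.07, 0.09, 0.26 and 0.10, all above 0 with replicate 1 the highest, and its mean was 0.19 ± 0.16 (adjusted p = 0.0207). The orientations disagreed, at 0.51 with treated embryos in channel 1 and −0.12 with them in channel 2. The call was lost without replicate 1 or 4 (adjusted p up to 0.132). After removal of the trend it was at 0.19 ± 0.11 (adjusted p = 0.0356). Slc12a2, the sodium, potassium and chloride cotransporter that brings salt in, was at −0.16 ± 0.14 on design 1 and −0.08 ± 0.09 on design 2, and neither passed (adjusted p = 0.0822 and 0.263).

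Of 12 zinc carrier probes, each for a different gene, 2 rose, 3 fell and 7 did not pass, the last at −0.11 to 0.11. On design 1, 0 of 3 rose and 1 fell, against 10.2% and 5.77% of all probes. On design 2, 2 of 9 rose and 2 fell, against 19.8% and 8.07% of all probes. Slc39a members bring zinc into the cytosol and Slc30a members move it out, into vesicles or out of the cell. On design 2, Slc39a7, which releases zinc from the endoplasmic reticulum, stood at 0.40, 0.44, 0.10, 0.23 and −0.03, with a mean of 0.23 ± 0.20 (adjusted p = 0.0113). Slc39a4, the zinc importer of the gut and visceral yolk sac, was at 0.13, 0.63, 0.10, 0.29 and −0.06, with a mean of 0.22 ± 0.26 (adjusted p = 0.0272). In both, replicate 5 lay below 0. Of yolk sac genes, Ttr, Apoa1 and Apoa4, which encode carriers of thyroid hormone and lipids, were at −0.08, −0.11 and −0.07 on design 1 and did not pass (adjusted p = 0.409, 0.199 and 0.480). Slc39a9 fell, at −0.24, −0.21, −0.30, −0.08 and −0.14, with a mean of −0.19 ± 0.08 (adjusted p = 0.0103).

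Both called Slc30a genes fell. Slc30a3 on design 2 was at −0.27, −0.25, −0.12, −0.16 and −0.10, with a mean of −0.18 ± 0.08 (adjusted p = 0.0156). Slc30a2 on design 1 was at −0.22, −0.04, −0.29, −0.08 and −0.57, where replicate 5 was far lower than replicates 2 and 4, with a mean of −0.24 ± 0.21 (adjusted p = 0.0410). None of these 5 zinc carriers was called with the trend removed, at 0.10 for Slc39a7, 0.15 for Slc39a4, −0.12 for Slc39a9, 0.03 for Slc30a3 and −0.06 for Slc30a2. Calls were lost without replicate 1 or 2 for Slc39a7 and Slc30a3 (adjusted p up to 0.109 and 0.0634), without replicate 1, 2 or 4 for Slc39a4 (up to 0.197), without replicate 3 for Slc39a9 (0.0647) and without replicate 1, 3, 4 or 5 for Slc30a2 (up to 0.156).

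Slc40a1, ferroportin, exports iron from cells. It fell on design 2, at −0.33, −0.11, −0.36, −0.10 and −0.02, with a mean of −0.18 ± 0.15 (adjusted p = 0.0240). Replicates 1 and 3 were lowest, and the call was lost without either (adjusted p up to 0.133). Slc11a2, which imports ferrous iron, was at 0.06 on design 1 and 0.02 on design 2, and Slc48a1, a haem carrier, at −0.00 ± 0.10 on design 1, and none of these probes passed.

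Slc34a2, a sodium phosphate cotransporter, rose on design 1, at 0.25, −0.12, 0.22, 0.44 and 0.43, with a mean of 0.24 ± 0.23 (adjusted p = 0.0448). Replicate 2 lay below 0, and the call was lost without replicate 1, 3, 4 or 5 (adjusted p up to 0.169). Its probes on design 2 were at −0.12 ± 0.09 and 0.08 ± 0.14 and did not pass. Slc9b1, of a sodium and proton exchanger family, fell on design 1, at −0.24, −0.04, −0.05, −0.28 and −0.39, with a mean of −0.20 ± 0.15 (adjusted p = 0.0495). This call was the nearest to the threshold and was lost without replicate 1, 2, 4 or 5 (adjusted p up to 0.166). By class, ions and metals gave 1 higher (6.67%, against 10.2% of all probes) and 3 lower (20.0%, against 5.77%) of 15 probes on design 1, and 4 higher (18.2%, against 19.8%) and 3 lower (13.6%, against 8.07%) of 22 on design 2. After removal of the trend these were 0 and 0 on design 1, where 0 were at an unadjusted p under 0.05, and 2 and 0 on design 2.

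Most amino acid carriers did not pass. On design 1, 1 of 7 probes rose (14.3%, against 10.2% of all probes), none fell (against 5.77%), and 6 were at an unadjusted p under 0.05 (against 35.6% of all probes). Slc38a4, a sodium-coupled carrier of neutral amino acids that is imprinted in the mouse, stood at 0.65, 0.15, 0.26, 0.33 and 0.29. All lay above 0 with replicate 1 the highest, and the mean was 0.33 ± 0.19, a 1.26-fold rise (adjusted p = 0.00968). Its other probe was at 0.17, −0.08, 0.12, 0.37 and 0.35, with a mean of 0.19 ± 0.18 (adjusted p = 0.0745). The call was lost without replicate 4 (adjusted p = 0.0568), and with the trend removed the called probe was at 0.22 ± 0.21 (adjusted p = 0.177).

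Slc38a2 and Slc38a1, sodium-coupled carriers that supply cells with glutamine and alanine, did not pass on design 2. Slc38a2 was at 0.03, −0.19, −0.07, 0.02 and −0.02, around 0, with a mean of −0.05 ± 0.09 (adjusted p = 0.543). Slc38a1 was at 0.12, −0.18, −0.04, 0.05 and −0.06, with a mean of −0.02 ± 0.11 (adjusted p = 0.796). With the trend removed they passed as lower, at −0.25 ± 0.04 (adjusted p = 0.00405) and −0.19 ± 0.06 (adjusted p = 0.0201). Whether they were lower thus depended on that step. Atf4, which encodes the transcription factor known to induce Slc38a2, was at −0.41 before removal and −0.59 after it on the same design. Whether Atf4 had a part in the Slc38a2 value was not tested. No amino acid probe of the 7 on design 2 passed before removal (against 27.8% of all probes). At an unadjusted p under 0.05 there was 1, against 41.2% of all probes.

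Slc3a2 and Slc1a5, the other ATF4 targets measured, also did not pass. Slc3a2, the heavy chain that partners several amino acid exchangers, was at −0.02, 0.08, 0.12, 0.22 and 0.35 on design 1, with a mean of 0.15 ± 0.14 (adjusted p = 0.106). Slc1a5, a neutral amino acid and glutamine exchanger, was at −0.03 ± 0.09 on design 2 (adjusted p = 0.684). Outside that list, Slc38a9, a lysosomal carrier that senses arginine, was at 0.16 ± 0.20 (adjusted p = 0.0599), and Slc7a8, an exchanger of large neutral amino acids, at −0.18 ± 0.19 (adjusted p = 0.0849). Of 20 stress-regulated solute carriers listed for description, 12 were measured, and Slc7a11 and Slc7a5 were not among them.

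The Slc6 carriers gave no call. On design 1, 0 of 4 probes passed (against 15.9% of all probes) and 2 were at an unadjusted p under 0.05 (against 35.6%). On design 2 these were 0 of 3 and 0, against 27.8% and 41.2% of all probes. So few probes would hold few calls at these shares. Slc6a20a, a proline carrier, was at −0.16 ± 0.09 (adjusted p = 0.0680). Slc6a8, which imports creatine, was at 0.14 on design 1 and −0.09 on design 2 (adjusted p = 0.115 and 0.181). Slc6a6, which imports taurine, was at 0.09, 0.12 and 0.06 on its 3 probes.

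Among sugar carriers, Slc2a3 rose on design 1. It encodes GLUT3, a high-affinity glucose transporter of neurons and early embryos. Its replicates were 0.10, 0.26, 0.17, 0.41 and 0.50, all above 0 and highest in replicates 4 and 5, with a mean of 0.29 ± 0.17, a 1.22-fold rise (adjusted p = 0.0157). The call was lost without replicate 4 (adjusted p = 0.0698), and with the trend removed the value was 0.10 ± 0.08 (adjusted p = 0.266). Slc2a1, GLUT1, the widespread basal glucose transporter, was at 0.09 ± 0.21 and 0.11 ± 0.14 on its 2 probes and did not pass (adjusted p = 0.431 and 0.251). Both had their highest values in replicates 4 and 5.

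Slc45a3, of a family that includes sugar carriers, fell on design 1, at −0.16, −0.18, −0.11, −0.32 and −0.17, with a mean of −0.19 ± 0.08 (adjusted p = 0.0414). Its other probe was at −0.16 ± 0.02 (adjusted p = 0.0553). The called probe was at −0.55 with treated embryos in channel 1 and 0.17 with them in channel 2, and lost its call without replicate 1, 2, 4 or 5 (adjusted p up to 0.126). Slc2a4, the insulin-responsive GLUT4, was at −0.14 ± 0.11 on design 2 (adjusted p = 0.0627), and Slc2a8 at 0.01 and −0.06. No sugar probe of the 4 on design 2 passed (against 27.8% of all probes), and 1 was at an unadjusted p under 0.05 (against 41.2%).

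Lactate and pyruvate carriers did not pass. Slc16a1, MCT1, was at 0.08 ± 0.11 and Slc16a3, MCT4, which exports lactate, at 0.02 ± 0.17 on design 1 (adjusted p = 0.346 and 0.851). Of 3 probes listed for carrier partners on that design, 1 rose (33.3%, against 10.2% of all probes). This was Bsg, the chaperone that brings both to the cell surface. It stood at 0.39, 0.39, 0.15, 0.48 and 0.55, with a mean of 0.39 ± 0.15 (adjusted p = 0.00330). The probes of Emb, another listed partner, were at 0.07 and 0.15 and did not pass (adjusted p = 0.412 and 0.111). Bsg was at 0.15 after removal of the trend (adjusted p = 0.107). Mpc1, a subunit of the mitochondrial pyruvate carrier, was at −0.07 on design 2 (adjusted p = 0.302).

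Of the Slc35 carriers, which bring nucleotide sugars into the endoplasmic reticulum and Golgi for glycosylation, 1 of 11 probes on design 1 rose. This was 9.09%, against 10.2% of all probes, and none fell (against 5.77%). Slc35a4 was at 0.21, 0.23, 0.10, 0.18 and 0.28, above 0 throughout, with a mean of 0.20 ± 0.06 (adjusted p = 0.0328). The call was lost without replicate 1, 2, 4 or 5 (adjusted p up to 0.106). Removal of the trend left 0.06. None of 5 probes on design 2 passed (against 27.8% of all probes), and 0 were at an unadjusted p under 0.05 (against 41.2%).

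Carriers of other organic solutes held 3 calls. On design 1, 1 of 14 probes rose (7.14%, against 10.2% of all probes) and none fell (against 5.77%). On design 2, 1 of 11 rose (9.09%, against 19.8%) and 1 fell (9.09%, against 8.07%). Slc14a1, a urea transporter of red cells and kidney, was at 0.44, 0.35, 0.31, 0.31 and 0.27 on design 2, with a mean of 0.34 ± 0.07 (adjusted p = 4.98e-05). All 5 lay above 0, but the orientations differed, at 0.73 with treated embryos in channel 2 and −0.05 with them in channel 1, and with the trend removed the value was −0.00 ± 0.06 (adjusted p = 0.965). Slc15a2, a proton-coupled peptide carrier, rose on design 1, at 0.25, 0.09, 0.13, 0.52 and 0.52, with a mean of 0.30 ± 0.21 (adjusted p = 0.0178). Its other probe there was at −0.06 ± 0.13 (adjusted p = 0.50). The Slc15a2 call was lost without replicate 4 (adjusted p = 0.0777), and the value was 0.09 with the trend removed. Slc18b1, a vesicular polyamine carrier, fell on design 2, at −0.32, −0.16, −0.27, −0.05 and −0.02, with a mean of −0.16 ± 0.13 (adjusted p = 0.0358), and lost its call without replicate 1, 2 or 3 (adjusted p up to 0.160).

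**Figure D3:**
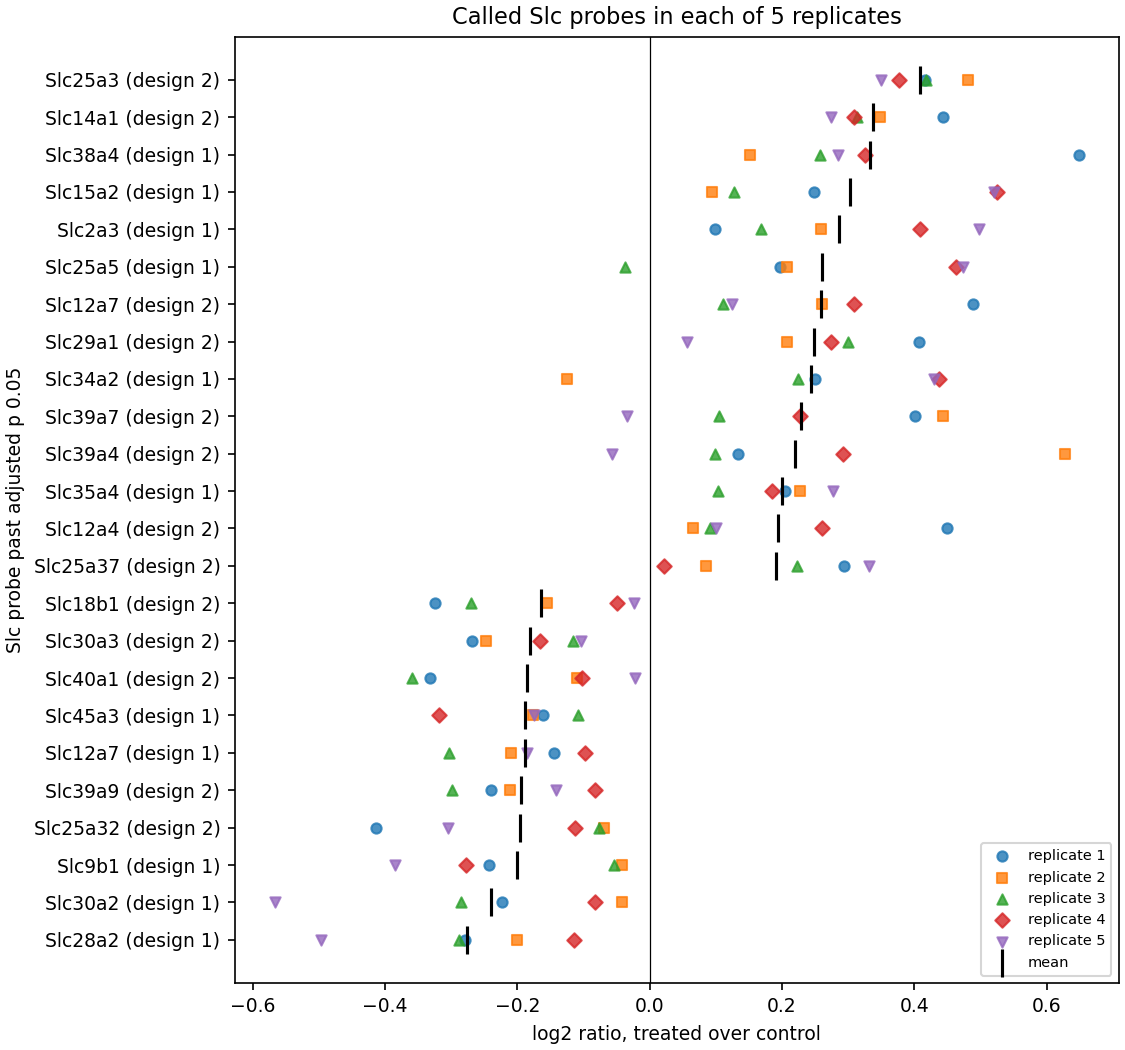
Each row is 1 of the 24 solute carrier probes past an adjusted p of 0.05, with the log2 ratio of treated over control embryos in each of 5 replicates and a black bar at the mean. Slc25a3 at the top keeps its replicates between 0.35 and 0.48, whereas Slc39a4 spreads from −0.06 to 0.63, and 4 probes have a replicate on the other side of 0.

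Genes with several probes allow a check within the data. There were 23, of which 15 had no called probe, 7 had a call on some of their probes and 1, Slc12a7, on all of them but in opposite directions. The probes of 12 genes shared a sign. These counts were not made for other genes with several probes, so they are not shown to be particular to the solute carriers. Slc25a36, a pyrimidine nucleotide carrier, was at −0.06 on design 1 and 0.18 on design 2. Slc25a20, which carries acylcarnitines into mitochondria, was at 0.16 and −0.04 on design 1. Over the 12 genes on both designs, 7 had the same sign, with a correlation across genes of −0.32 and a median difference of 0.155 regardless of sign. For all 943 genes on both designs these were 639, 0.57 and 0.0897. Genes are not independent replicates, and probes of one gene may detect different transcripts.

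**Figure D4:**
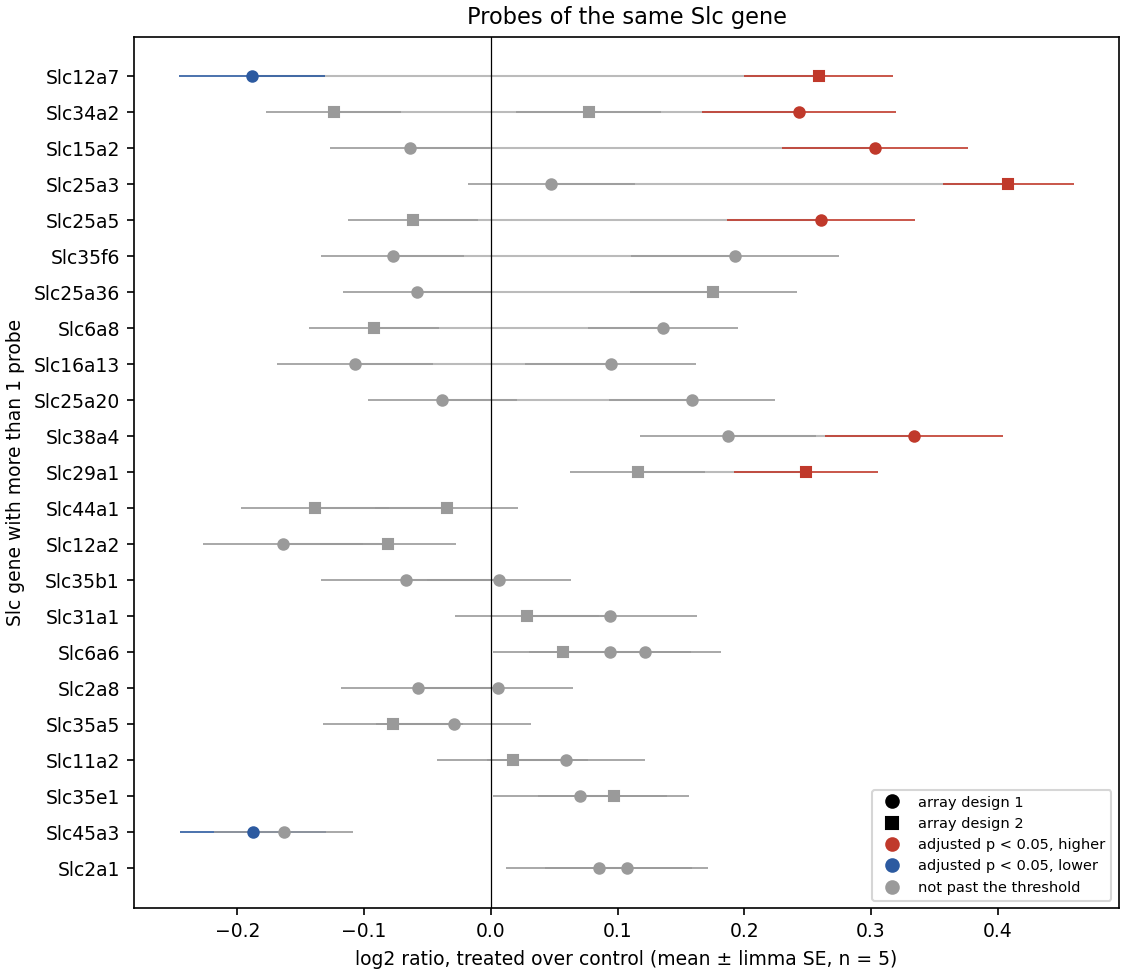
Each row is 1 of the 23 solute carrier genes with more than 1 probe, with each probe's mean log2 ratio of treated over control embryos and limma SE over 5 replicates. Circles are probes of design 1 and squares of design 2. Slc12a7 has a called probe on either side of 0, at −0.19 and 0.26, while Slc29a1 and Slc38a4 have both probes above 0.

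Genes that set up gradients for the carriers or move solutes by other means were counted for comparison. Of the ATPases that pump ions, 3 of 14 probes rose (21.4%, against 10.2% of all probes) and none fell on design 1, and 5 rose (41.7%, against 19.8%) and 1 fell (8.33%, against 8.07%) of 12 on design 2. They included Atp1b1, a subunit of the sodium pump, at 0.24 and 0.30, Atp1b3, another, at 0.25, and Atp6v1e1, of the proton pump of lysosomes, at 0.25. A further Atp1b1 probe on design 1 was at 0.14 and did not pass (adjusted p = 0.160). The design 2 probes of Atp6v1b2, also of the proton pump, passed in opposite directions, at 0.15 and −0.17. Its design 1 probe was at 0.12 and did not pass (adjusted p = 0.142). Of the ABC transporters, 0 of 7 passed on design 1 (against 15.9% of all probes), with 0 at an unadjusted p under 0.05 (against 35.6%). On design 2, 2 of 5 rose (40.0%, against 19.8%), Abcd4 at 0.24 and Abcg4 at 0.20. Of the Slco organic anion carriers, Slco3a1 fell on design 1 at −0.21, alone among 3 (33.3%, against 5.77%). On design 2, 0 of 3 passed (against 27.8% of all probes), with 0 at an unadjusted p under 0.05 (against 41.2%). With the trend removed no probe of these lists passed, with 2, 0 and 0 at an unadjusted p under 0.05 on design 1 and 0, 1 and 0 on design 2.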

How the data were processed

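Per the labels, the 40 samples are readouts of 20 slides, 2-colour arrays of treated and control mouse embryos on 1 of 2 designs, each slide read as a plain and a B readout. The deposited values are log2 ratios; the base was inferred from the low tail of 1 readout, where the mean excess below −3, −4 and −5 was 1.46, 1.53 and 1.74, against 1.44 for base 2. The sources used here name no scanner, background correction or normalization.

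Probes were named from the platform annotation and the GRCm38.p6 gene table. On design 1, 4749 spots had 1 symbol, 227 several and 2704 none. On design 2 these were 4935, 275 and 2470. Spots of 1 accession were averaged, leaving 7680 and 7599 probes, of which 4749 and 4855 had 1 symbol. Readout medians ran from −1.73 to 1.69. Each readout was centred on its median, ratios were turned to treated over control, and readouts and then dye orientations were averaged to 1 value per replicate. A readout lacking over 5% of values (1, with 786 missing) was left out of replicate 4 of design 1. R 4.3.3 and limma 3.58.1 (lmFit and eBayes) gave two-sided tests of a mean of 0 for probes measured in at least 3 replicates, with Benjamini-Hochberg adjustment over all probes of a design and a threshold of 0.05. Fits within 1 slide series allowed fewer replicates. The designs, in separate tables, were fitted apart. The trend was fitted with mgcv 1.9.3 on 3 principal components of the dye part.

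The fit was tested on simulated data. The named genes were called probes with one sign in every replicate, the smallest p per class and design, measured stress-regulated genes and genes with several probes. Slc7a8, Slc25a26, Slc25a33, Slc28a3, Slc29a2, Slc38a1, Slc39a4 and Slc39a7 fall outside that rule and were chosen after their values were seen. Members and lists were chosen with earlier results of these data known.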

Additional observations from a re-analysis of the deposited data

Results flagged for a closer look

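Among 76 probes of named solute carriers tested for a replicate far from the others, 1 stood out. Of the 2 Slc25a20 probes on design 1, the one with a mean of −0.04 was at 0.12 in replicate 3, while its other replicates lay between −0.10 and −0.04. By chance about 1 in 20 groups would be marked in this way.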

How the results depend on the processing

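The counts below are given in the order all probes, solute carriers higher and solute carriers lower. They were 1224, 6 and 5 on design 1 and 2114, 8 and 5 on design 2. Leaving out 1 replicate gave 82 to 1074, 0 to 5 and 0 to 4 on design 1, with the lowest of each without replicate 4, and 1013 to 2637, 4 to 9 and 1 to 7 on design 2. Scaling the arrays to one spread gave 576, 3 and 0, and 1330, 7 and 1. Keeping the readout that lacks values gave 50, 0 and 0 on design 1. Removal of the dye-profile trend gave 118, 0 and 0, and 382, 5 and 2. Plain readouts alone gave 501, 2 and 0, and 1076, 5 and 0, and B readouts alone 4, 0 and 0, and 1781, 5 and 5. Treated embryos in channel 1 alone gave 2324, 10 and 9, and 1190, 6 and 4, and in channel 2 alone 1295, 2 and 7, and 117, 0 and 0. Single readouts with the replicate as a block gave 742, 4 and 1, and 2471, 10 and 11, at a consensus correlation of −0.12 and −0.16. A term for the slide series gave 568, 3 and 1, and 1954, 9 and 5. With fewer replicates, the 2000 series alone gave 60, 1 and 0, and 2172, 9 and 6. The 3000 series alone, also with fewer, gave 281, 1 and 0, and 811, 2 and 0. A robust prior gave 1236, 6 and 5, and 2219, 11 and 5. An ordinary one-sample test on the same values gave 14, 0 and 1, and 869, 2 and 0. Requiring all 5 replicates moved no count.

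Without centring, the median of all probes lay at −0.23 to −0.44 in the replicates of design 1 and at −0.12 to −0.66 on design 2, and 6398, 0 and 64 probes were called on design 1 and 6655, 0 and 56 on design 2. Every direction here is therefore relative to the middle of the array. These called solute carriers then turned sign: Slc2a3 to −0.0263, Slc34a2 to −0.0695, Slc25a5 to −0.0521, Slc35a4 to −0.11 and Slc15a2 to −0.0095 on design 1, and Slc12a4 to −0.24, Slc12a7 to −0.17, Slc39a4 to −0.21, Slc39a7 to −0.20, Slc25a3 to −0.0208, Slc25a37 to −0.24, Slc29a1 to −0.18 and Slc14a1 to −0.0916 on design 2. Removal of the trend turned Slc30a3 to 0.0255 and Slc14a1 to −0.0036. With treated embryos in channel 1 alone, Slc34a2 turned to −0.0499 on design 1 and Slc14a1 to −0.0503. In channel 2 alone, Slc45a3 turned to 0.17, Slc12a7 on design 1 to 0.12, Slc9b1 to 0.0778, Slc28a2 to 0.19, Slc12a4 to −0.12, Slc39a4 to −0.13, Slc25a32 to 0.0947 and Slc18b1 to 0.0046. The cause was not tested for any of these. Signal over background could not be assessed, since the files give ratios alone.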
